A study of Arabidopsis thaliana with 9 samples.

Results

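The genes described here are the ferritins and the vacuolar iron transporters of Arabidopsis thaliana, 10 of the 27655 loci in the deposited table. They are the 4 ferritin genes FER1, FER2, FER3 and FER4, the 4 genes VIT1, VTL1, VTL2 and VTL5 of the vacuolar iron transporter type, and NRAMP3 and NRAMP4. The genes were chosen by their role in iron storage, and the group was singled out after FER1 was known to be higher in both mutant lines than in wild type. Their differences from wild type are therefore given as a description, with no p-value. Counts past the threshold against wild type are printed beside those of all genes, and nothing is read from them. For these 10 genes p-values are given for the difference between the 2 mutant lines. The other gene lists were also chosen with earlier results of these data known. Genes named from those lists were picked by small adjusted p-values against wild type or after their values were seen. Their p-values against wild type are therefore descriptions too, and not independent tests.

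Messenger RNA was measured by sequencing in 9 libraries of whole seedlings, 3 per group. The first group was labelled h3.3ko;HTR5 G34R and the second h3.3ko;HTR5 G34W, here G34R and G34W, and the third was wild type of the Col accession (WT). Seedlings of all groups were 10 days old and had been raised at 22 °C in days of 16 h light and 8 h dark. H3.3 is the histone H3 variant encoded by HTR4, HTR5 and HTR8. By the usual notation, G34R has arginine and G34W tryptophan where wild-type HTR5 has a glycine. Both lines share the h3.3ko background, and h3.3ko plants with wild-type HTR5 were not analysed here, so effects of the substitution and of the background cannot be told apart. The labels do not tell whether replicates were grown separately, so a p-value here reflects the scatter among 3 samples a group, part of which may be technical.

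Plant cells keep excess iron in 2 kinds of store. Ferritins are proteins of plastids, and in part of mitochondria, that assemble into hollow shells and hold iron as a mineral inside, and their transcripts are known to accumulate when iron is plentiful. The vacuole is the other store: VIT1 and its relatives load iron into it, and NRAMP3 and NRAMP4 release it again, a step known to be needed when seeds germinate on little iron.

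FER1 is known for the iron-dependent regulatory sequence, an element of 14 bases through which the gene is held low when iron is scarce. The genes' own sequences are shown because the 4 ferritins differ at this element and also differed in their levels. The 500 bases before the start codon of each gene were searched on both strands with the element as read from FER1 itself. The match of all 14 letters in FER1 was thus fixed in advance, and it lies 190 bases before the codon. In the TAIR10.1 gene model this lies 267 bases inside the annotated leader of the transcript. The best matches in the other ferritins had 9 letters in FER2, 9 in FER3 and 10 in FER4, at 176, 173 and 195 bases before the codon. RefSeq sequence of TAIR10.1 is printed 5′ to 3′ on the strand of each gene, and the capitals mark the 14 letters that align with the element.
FER1: ggatgtagCACGAGGCCGCCACacgcccct
FER2: agagacacCACACGTATGCCACaagccttt
FER3: caatgcacCACACGCCTGACACgcgcccaa
FER4: agttgaacCACAAGCTTGCCACgcgccatg
The stretches lie at chr5:229763-229792 on the minus strand for FER1, chr3:3463467-3463496 on the plus strand for FER2, chr3:20816136-20816165 on the minus strand for FER3 and chr2:16833388-16833417 on the minus strand for FER4. Of 27443 genes searched in the same way, only FER1, from which the letters were read, held all 14 (1 gene, 0.00364%). A stretch with at least 10 was held by 5.91% and a stretch with at least 9 by 33.3%. By the number of letters alone, the partial matches in FER2, FER3 and FER4 are thus of a kind that many genes hold. These shares count a match at any place in the 500 bases and on either strand. In all 4 ferritins the match lies on the strand of the gene, 173 to 195 bases before the codon. How many genes hold a match so placed was not counted. Where stretches tied in letters, the search kept the one on the gene's strand, and on that strand the one farthest from the codon. Ties were not counted, so the shared strand and place may in part come from this order. In the 250 bases before the annotated transcript start, searched on both strands, the G-box CACGTG, a site bound by bHLH and bZIP factors, was found in FER3 and FER4, 76 and 69 bases before the start. It was found in 6.5% of all promoters of that length. The end of the element, CCGCCAC, was found 17 bases before the start of FER3 and in 0.8% of promoters. The start of the element, CACGAG, in 4.2% of promoters, and the phosphate-response site GNATATNC, in 5.5%, were found in none of the 10 genes within this window. A match is a description of letters and shows neither binding nor its absence.

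All 4 ferritin genes have 8 exons in the TAIR10.1 annotation. FER1 (AT5G01600) spans chr5:227953-230051 on the minus strand, FER2 (AT3G11050) chr3:3463477-3465506 on the plus strand, FER3 (AT3G56090) chr3:20813904-20816035 on the minus strand and FER4 (AT2G40300) chr2:16831109-16833294 on the minus strand. VTL1 (AT1G21140) at chr1:7404328-7405426 and VTL2 (AT1G76800) at chr1:28829243-28830278, both on the plus strand, each have 1 exon. VTL5 (AT3G25190) at chr3:9174398-9175866 on the plus strand has 2 exons. VIT1 (AT2G01770) at chr2:334663-336462 and NRAMP3 (AT2G23150) at chr2:9856149-9858778, both on the minus strand, have 4 exons each, and NRAMP4 (AT5G67330) at chr5:26861266-26863897 on the plus strand has 3. The coding sequence of FER1 was 69.7% to 70.3% identical to those of the other ferritins. FER3 and FER4 were the most alike of the ferritins, at 79.3%. The longest stretch that FER1 shares exactly with another ferritin transcript is 17 bases, against 32 between FER3 and FER4, 24 between VTL1 and VTL2 and 23 between NRAMP3 and NRAMP4. Only reads confined to such stretches could be exchanged between these copies without a mismatch.

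Levels are deposited as TPM, a transcript abundance in which each library sums to 1000000. Reads recovered from the TPM came to 14249990 to 14730745 per library in G34R, 13561808 to 14315761 in G34W and 12889624 to 14006090 in WT. Of the H3.3 genes, HTR8 had 3.92 to 5.86 TPM in G34R and 4.65 to 6.69 TPM in G34W, against 207 to 214 TPM in WT. HTR4 had 132 to 137 TPM in G34R and 152 to 165 TPM in G34W, against 408 to 438 TPM in WT. HTR5, the gene that carries the substitution, had 353 to 360 TPM in G34R and 368 to 390 TPM in G34W, against 331 to 335 TPM in WT. HTR4 and HTR8 were thus lower in both lines than in WT, HTR8 far more so. Transcripts of HTR4, HTR5 and HTR8 were present in all 9 libraries. The table gives gene totals and cannot show which HTR5 allele a read came from. Over all 18544 genes tested, the median difference in log2(TPM + 1) was 0.10 for G34R minus WT and 0.21 for G34W minus WT, so members are set against those medians.

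FER1, the main ferritin of leaves, had the highest level of the 10 genes in every library. It had 520, 518 and 528 TPM in the G34R libraries and 374, 374 and 374 TPM in the G34W libraries, against 84.9, 88.1 and 91.0 TPM in WT. The 3 groups did not overlap, and every G34R library lay above every G34W library. The mean was 522 ± 5.4 TPM in G34R, 374 ± 0.062 TPM in G34W and 88.0 ± 3.1 TPM in WT (SD, n = 3 each). That is 5.93 times the WT mean in G34R and 4.25 times in G34W. On the log2(TPM + 1) scale the difference was 2.56 ± 0.03 (SE) for G34R minus WT and 2.08 ± 0.03 for G34W minus WT. By this difference FER1 ranked 12 among the 18544 genes tested in G34R and 21 in G34W. By its mean TPM it ranked 188 in G34R, 314 in G34W and 1543 in WT. The G34W libraries differed by only 0.017% (coefficient of variation), although their 5239, 4928 and 5142 reads would give 1.4% from counting alone. The small SD in that group therefore understates the error of the mean, and the test of the next paragraph uses a spread moderated over all genes.

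Between the lines, FER1 fell in G34W relative to G34R, with a log2 difference of -0.48 ± 0.03 and a ratio of means of 0.717. limma's test with Benjamini-Hochberg adjustment over 18544 genes gave an adjusted p of 1.83e-08. The G34W libraries were all below the G34R libraries. FER1 overlaps an antisense long noncoding RNA, AT5G01595, over 1334 bases, 656 of them exonic. No source used here tells whether reads were counted by strand, so reads of the 2 genes cannot be told apart, and AT5G01595 was not analysed here.

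FER4, whose protein is known from both mitochondria and plastids, had 22.0, 24.4 and 24.9 TPM in G34R and 29.0, 28.4 and 26.9 TPM in G34W, against 13.8, 13.1 and 12.3 TPM in WT. Every library of both lines was above every WT library, by 0.82 ± 0.08 log2 units in the mean for G34R minus WT and 1.05 ± 0.08 for G34W minus WT. The order of the lines was the opposite of that for FER1. FER4 was higher in G34W than in G34R by 0.23 ± 0.08 log2 units (limma, adjusted p = 0.0283), and the lines did not overlap. This call between the lines was lost with 5 of 14 alternatives, median-ratio scaling (adjusted p = 0.141) and quantile normalization (adjusted p = 0.107) among them, the others being without G34R replicate 1 or G34W replicate 1 or 2 (adjusted p = 0.0829 to 0.11). FER4 shares 118 exonic bases with AT2G40290, its neighbour on the same strand. That neighbour had 58.1, 51.6 and 52.1 TPM in G34R and 72.3, 68.9 and 63.5 TPM in G34W, against 45.8, 44.4 and 46.9 TPM in WT. Its part in the FER4 values was not tested.

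FER3, a ferritin of vegetative tissue, differed less between the groups. It had 42.5, 49.7 and 47.2 TPM in G34R and 53.8, 54.7 and 45.5 TPM in G34W, against 39.8, 38.8 and 38.7 TPM in WT. All 6 libraries of the lines were above the WT libraries, and the lines overlapped each other. The log2 difference was 0.24 ± 0.07 for G34R minus WT and 0.38 ± 0.07 for G34W minus WT, not far above the medians of all genes. They were 0.11 and 0.16 under median-ratio scaling, and 0.15 and 0.25 under quantile normalization. Between the lines the difference of 0.14 ± 0.07 did not pass the test (limma, adjusted p = 0.158).

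FER2, known as the ferritin of seeds, was close to the limit of detection. It had 2.08, 2.40 and 2.93 TPM in G34R and 1.48, 1.34 and 1.05 TPM in G34W, against 1.19, 2.20 and 2.55 TPM in WT. These values rest on 30, 33 and 40 reads in G34R, 20, 17 and 14 reads in G34W and 15, 27 and 34 reads in WT. Both lines overlapped WT, and the WT libraries spread the most. G34W was below G34R without overlap, by a log2 difference of -0.60 ± 0.20 (limma, adjusted p = 0.0268), a call that was lost in 4 of 14 alternatives, those without G34R replicate 2 or 3 or G34W replicate 2 or 3 (adjusted p = 0.0534 to 0.0924). Summed TPM of 11 seed genes, of which 6 were tested, was 42.13 to 48.15 in G34R, 19.75 to 20.68 in G34W and 25.22 to 31.56 in WT. Of those tested, 2 were higher and 1 lower in G34R minus WT (33.3% and 16.7%, near the 34.6% and 16.5% of all genes). In G34W minus WT 2 were higher and 4 lower (33.3% and 66.7%, beside 44.8% and 13.1% of all genes). CRA1, a seed storage protein, had 19.8 ± 1.8 TPM in G34R and 3.77 ± 0.50 TPM in G34W, against 0.304 ± 0.20 TPM in WT (limma, adjusted p = 1.64e-12 and 2e-08). OLEO4, an oil body protein, had 3.23 ± 0.69 TPM in G34R and 6.33 ± 0.89 TPM in G34W, against 0.899 ± 0.19 TPM in WT, and EM6, a late embryogenesis protein, had 7.67 ± 1.65 TPM in G34R and 5.32 ± 1.41 TPM in G34W, against 14.6 ± 2.7 TPM in WT. The storage protein genes CRU2 and SESA1 were listed at 0 in all 9 libraries. The sum was thus higher in G34R than in G34W, in the same order as FER2, and its part in the FER2 values was not tested.

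**Figure D1:**
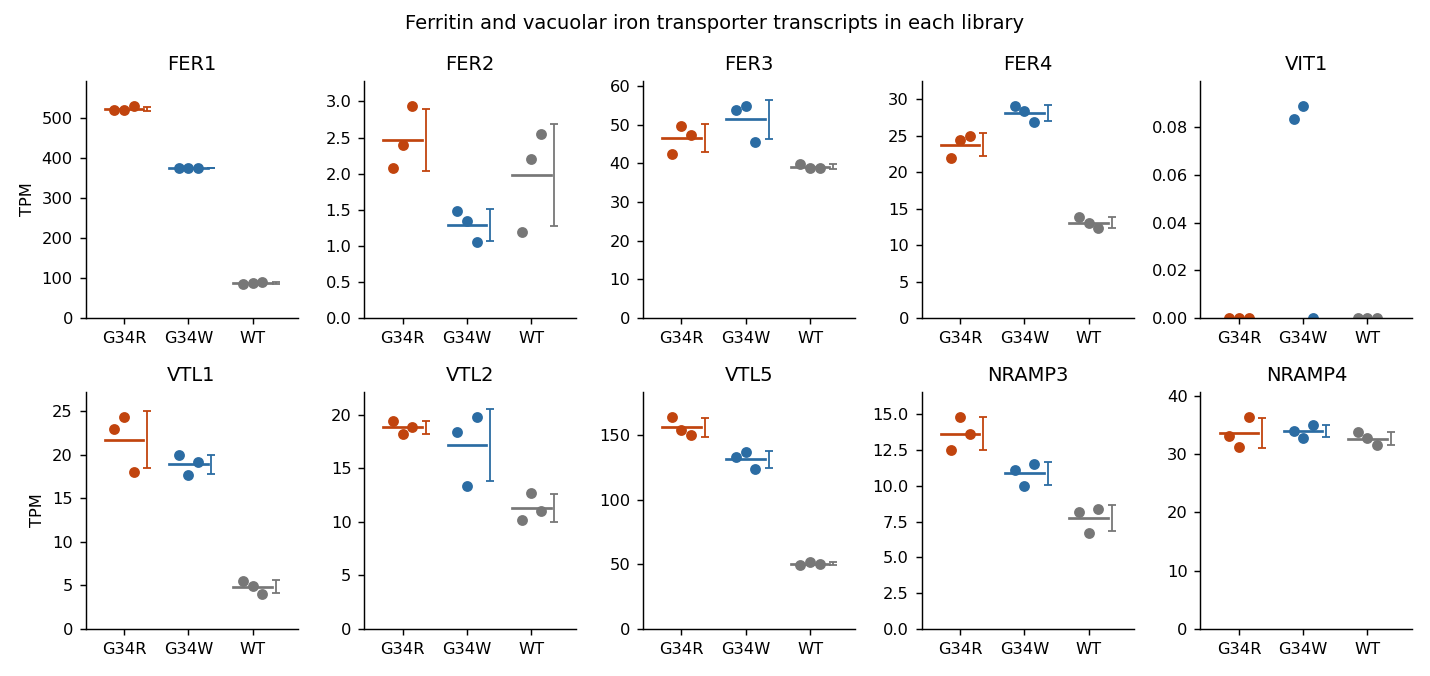
TPM of the 10 genes in each library, with G34R, G34W and WT from left to right in each panel and a separate axis from 0 for each gene. Points are libraries, bars are means and the error bars beside them are SD (n = 3), except for VIT1, where points alone are shown. FER1, FER4, VTL1, VTL2, VTL5 and NRAMP3 lie higher in both lines than in WT, FER3 slightly so, and FER2 and NRAMP4 overlap WT.

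Together the ferritins came to 595 ± 8.3 TPM in G34R, 455 ± 6.3 TPM in G34W and 142 ± 2.5 TPM in WT (SD, n = 3 each). Most of the difference lay in FER1. To compare levels between genes, reads were also divided by spliced transcript length, since the deposited TPM divide by a span that includes introns. On that scale FER1 made up 85.5% to 87.2% of ferritin transcripts in G34R and 79.4% to 81.6% in G34W, against 57.5% to 59.7% in WT. FER1 thus held the greater part in each library, and its share was highest in G34R.

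**Figure D2:**
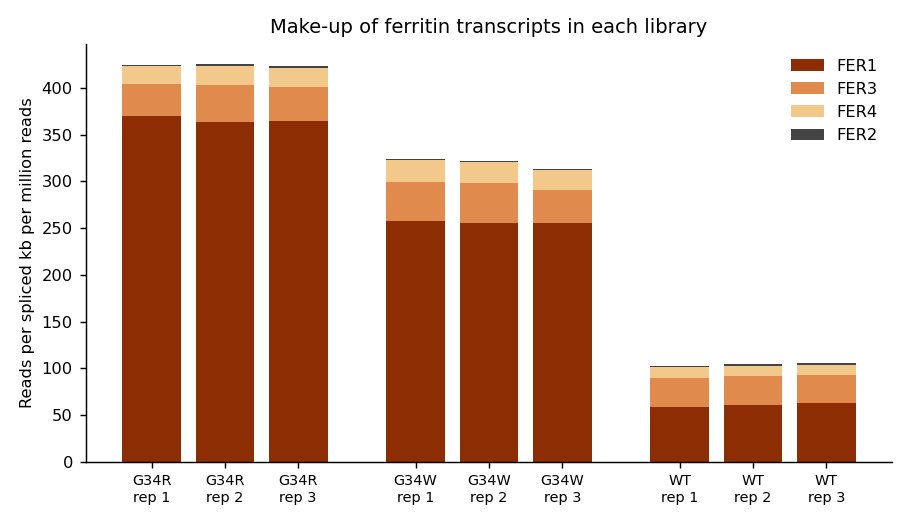
Ferritin transcripts in each of the 9 libraries, in reads per kilobase of spliced transcript per 1000000 reads, stacked by gene. FER1 reaches 364 to 370 in G34R and 256 to 258 in G34W, against 58.9 to 63.0 in WT, while the FER3, FER4 and FER2 parts differ much less.

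The vacuolar loaders of the VTL type were higher in both lines. VTL5 had the highest level of them, with 164, 154 and 150 TPM in G34R and 133, 137 and 124 TPM in G34W, against 49.6, 51.8 and 50.0 TPM in WT. The 3 groups did not overlap. The means were 156 ± 7.3, 131 ± 6.7 and 50.5 ± 1.2 TPM in G34R, G34W and WT, and the log2 difference was 1.61 ± 0.05 for G34R minus WT and 1.36 ± 0.05 for G34W minus WT. VTL5 fell in G34W relative to G34R by 0.25 log2 units (SE 0.05, limma, adjusted p = 0.000905), a call kept in all 14 alternatives.

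VTL1 encodes a VIT-like transporter whose transcript is known to be low in iron-starved Arabidopsis seedlings, as are those of VTL2 and VTL5. It had 22.9, 24.3 and 18 TPM in G34R and 19.9, 17.7 and 19.1 TPM in G34W, against 5.55, 4.96 and 4.02 TPM in WT. Every library of the lines was above every WT library, and the lines overlapped each other. Means were 4.49 times the WT mean in G34R and 3.90 times in G34W, from 493 reads in G34R, 405 in G34W and 100 in WT. The log2 differences were 1.96 ± 0.12 and 1.77 ± 0.12, so VTL1 came next to FER1 among the 10 genes in both comparisons. VTL2 had 19.4, 18.2 and 18.9 TPM in G34R and 18.4, 13.4 and 19.8 TPM in G34W, against 10.2, 12.7 and 11 TPM in WT. The lines were above WT here too, by log2 differences of 0.69 ± 0.12 for G34R minus WT and 0.55 ± 0.12 for G34W minus WT, of which the second was 0.34 under median-ratio scaling and 0.33 under quantile normalization. G34W minus G34R was -0.18 ± 0.12 for VTL1 (limma, adjusted p = 0.257) and -0.14 ± 0.12 for VTL2 (adjusted p = 0.376), neither past the threshold.

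VIT1, the transporter that places iron in the vacuoles of the embryo, was listed at 0 TPM in all G34R and all WT libraries. It had 0.0833 TPM and 0.0886 TPM, 1 read each, in G34W replicates 1 and 2 and was listed at 0 in replicate 3. A count of 3 reads, the limit used here for a count of 0, would be 0.235 to 0.248 TPM in G34R, 0.25 to 0.266 TPM in G34W and 0.254 to 0.275 TPM in WT. VIT1 was therefore not detectable at this depth in any group, it was left out of the test and no fold is given. A listed 0 can also be a failed estimate, which was not tested. SUFE1, which acts in iron-sulfur cluster assembly, was also listed at 0 in all 9 libraries. VIT1 overlaps the antisense gene AT2G01760 by 98 bases.

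The exporters NRAMP3 and NRAMP4, which work side by side in the vacuolar membrane, differed from each other. NRAMP3 had 12.5, 14.8 and 13.6 TPM in G34R and 11.1, 10.0 and 11.5 TPM in G34W, against 8.18, 6.72 and 8.41 TPM in WT. The 3 groups did not overlap, with log2 differences of 0.74 ± 0.11 for G34R minus WT and 0.44 ± 0.11 for G34W minus WT. The second was 0.24 under median-ratio scaling and 0.20 under quantile normalization. NRAMP3 was lower in G34W than in G34R by a log2 difference of -0.30 ± 0.11 (limma, adjusted p = 0.0396), and this call was lost in 6 of 14 alternatives, 5 of which left out 1 library of either line (adjusted p = 0.0525 to 0.154). NRAMP4 had 33.1, 31.2 and 36.3 TPM in G34R and 34, 32.8 and 35.0 TPM in G34W, against 33.7, 32.7 and 31.5 TPM in WT. All 3 groups overlapped. Its log2 differences were 0.03 ± 0.07 for G34R minus WT, 0.05 ± 0.07 for G34W minus WT and 0.02 ± 0.07 for G34W minus G34R (limma, adjusted p = 0.863), and all 3 were below 0 under median-ratio scaling and quantile normalization.

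**Figure D3:**
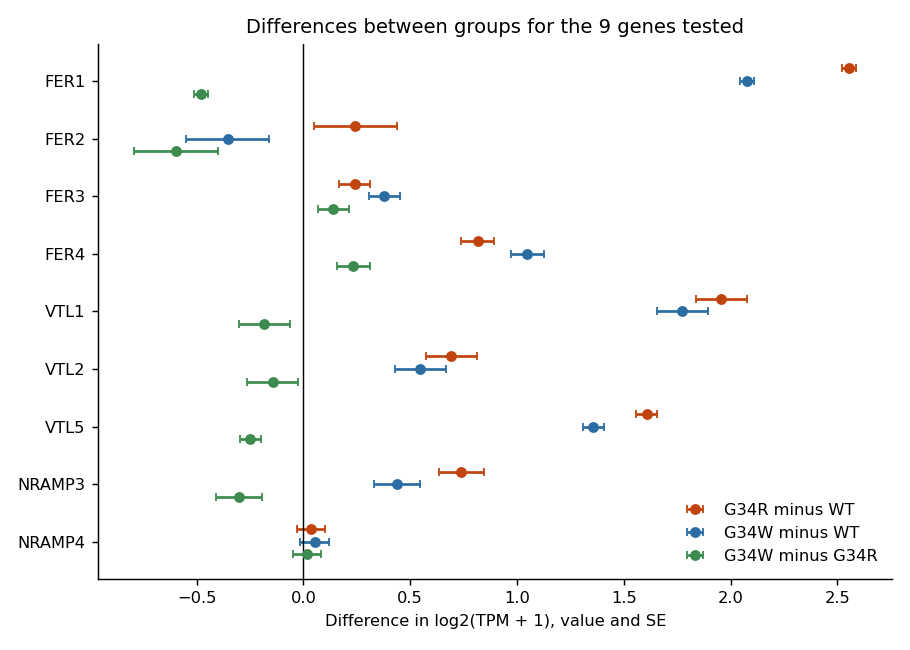
Differences in log2(TPM + 1) between groups for the 9 genes tested, with the SE from the fit over all 9 libraries. FER1, VTL1 and VTL5 lie farthest right for both lines minus WT, and for G34W minus G34R FER1 and FER2 lie farthest left of 0 while FER4 lies farthest right.

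Of the 10 genes, 7 were past the threshold as higher and 0 as lower in G34R minus WT, at an adjusted p under 0.05, while FER2 and NRAMP4 were not past it and VIT1 was not tested. Of all genes tested 34.6% were past it as higher and 16.5% as lower. The count in G34W minus WT was again 7 higher and 0 lower, beside 44.8% higher and 13.1% lower over all genes. Because these contrasts were in view when the genes were chosen, and share the WT libraries, nothing is read from the counts. The median difference of the 9 genes was 0.74 in G34R minus WT and 0.55 in G34W minus WT, against 0.10 and 0.21 over all genes. In G34W minus G34R, 1 gene (FER4) was higher and 4 (FER1, FER2, VTL5 and NRAMP3) were lower, beside 21.5% higher and 11.8% lower over all genes, and the medians were -0.18 for the 9 genes and 0.07 for all genes. With median-ratio scaling the split over all genes was 4665 higher and 4911 lower in G34R minus WT, in place of 6419 and 3060. It was 4500 and 4509 in G34W minus WT, in place of 8300 and 2427, and 2492 and 3250 in G34W minus G34R, in place of 3982 and 2192. The members' counts were then 6 higher and 0 lower, 5 higher and 2 lower, and 0 higher and 4 lower in these 3 comparisons.

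Levels per spliced kilobase put the genes in nearly the same order in each group. In G34R, FER1 (366 ± 3.6 reads per spliced kilobase per 1000000) was followed by VTL5 (107 ± 6.7), FER3 (36.8 ± 2.6), FER4 (19.7 ± 1.1) and NRAMP4 (17.4 ± 1.1). VTL1 (10.3 ± 1.7), VTL2 (8.96 ± 0.37) and NRAMP3 (8.43 ± 0.66) came next and lay within 1 SD of their neighbours, and FER2 (2.07 ± 0.32) was lowest of those detected. In G34W the order was FER1 (256 ± 1.1), VTL5 (87.5 ± 4.6), FER3 (39.7 ± 4.0), FER4 (22.7 ± 0.97), NRAMP4 (17.1 ± 0.55), VTL1 (8.76 ± 0.55), VTL2 (7.96 ± 1.6), NRAMP3 (6.56 ± 0.47) and FER2 (1.06 ± 0.18). In WT, VTL5 (34.1 ± 0.83) and FER3 (30.6 ± 0.51) were much closer to FER1 (61.0 ± 2.1). NRAMP4 (16.7 ± 0.59) stood above FER4 (10.7 ± 0.61), and VTL1 (2.27 ± 0.36) and FER2 (1.64 ± 0.59) did not differ beyond their spread. The place of VTL1 therefore differed most between the groups: near FER2 in WT, and beside VTL2 in both lines.

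These are whole seedlings, in which fewer cells of a type and less RNA per cell cannot be told apart. Markers of root and green shoot differed between the same groups. Of 12 root markers, none of them at 0, 10 were higher and 1 lower in G34R minus WT, and 10 were higher and 0 lower in G34W minus WT (83.3% higher in each, beside 34.6% and 44.8% of all genes). Their summed level was 186.5 to 205.7 TPM in G34R and 169.9 to 179 TPM in G34W, against 95.07 to 104.3 TPM in WT. CASP1, a scaffold protein of the Casparian strip, had 53.9 ± 2.6 TPM in G34R and 44.9 ± 2.0 TPM in G34W, against 19.7 ± 1.0 TPM in WT (limma, adjusted p = 1.79e-11 and 2.59e-10). CASP5, of the same family, and PRP3, a wall protein of root hairs, rose as well, by 2.02 ± 0.15 and 1.83 ± 0.10 log2 units in G34R minus WT (adjusted p = 1.34e-08 and 3.84e-10). SCR was the marker lower in G34R minus WT, at -0.24 ± 0.07 (adjusted p = 0.011). SHR, at 0.15 ± 0.11, was not past the threshold there (adjusted p = 0.26). In G34W minus WT neither SCR nor SHR was past it (adjusted p = 0.234 and 0.395). Of 10 green shoot markers, none at 0, 8 were lower in each line than in WT (80%, beside 16.5% and 13.1% of all genes), with 0 higher in G34R and 1 in G34W. Under median-ratio scaling 10 were lower in each line, beside 4911 and 4509 of all 18544 genes. Under quantile normalization 2 were lower in G34R and 3 in G34W. That method gives genes of equal rank the same value in every library, so it can remove differences among transcripts as abundant as these. The summed level of the green shoot markers was 69990 to 74210 TPM in G34R and 69010 to 70260 TPM in G34W, against 79990 to 80310 TPM in WT. LHCB2.1 and LHCB1.1, light-harvesting proteins, and RCA, the activase of Rubisco, differed by -0.41, -0.28 and -0.25 log2 units in G34R minus WT (adjusted p = 4.92e-10, 4.34e-08 and 8.91e-09). Under median-ratio scaling they were at -0.54, -0.41 and -0.38. Under quantile normalization LHCB1.1 was at -0.02 (adjusted p = 0.368) and RCA at 0.02 (adjusted p = 0.688). For the reason given, those 2 values cannot show whether the levels differed. The part of the root and shoot markers in the levels of FER1 and the other genes was not tested.

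The genes that take up iron at the root surface were also higher. Of 12 genes in this list 10 were tested, of which 9 were higher and 0 lower in G34R minus WT and 8 and 0 in G34W minus WT, with list medians of 1.36 and 0.76. The shares higher were 90% and 80%, beside 34.6% and 44.8% of all genes. IRT1, the main iron importer of the root, rose to 126 ± 5.0 TPM in G34R and 59.5 ± 2.1 TPM in G34W, against 23.5 ± 0.99 TPM in WT (limma, adjusted p = 4.33e-15 and 7.66e-12). CYP82C4, a hydroxylase of coumarin synthesis, rose to 57.2 ± 4.1 TPM in G34R and 19.95 ± 1.95 TPM in G34W, against 4.04 ± 0.63 TPM in WT (adjusted p = 6.36e-14 and 5.25e-11). AHA2, a proton pump of the root surface, rose to 175 ± 8.7 TPM in G34R and 164 ± 7.1 TPM in G34W, against 100.6 ± 1.2 TPM in WT (adjusted p = 2.91e-10 and 1.38e-09). Between the lines 5 of the 10 were lower and 0 higher in G34W, with a median of -0.36. That is 50% lower, beside 11.8% lower and 21.5% higher over all genes, whose median was 0.07. IRT1 was among the 5 lower genes at -1.07 ± 0.05 (adjusted p = 4.23e-10). In iron-starved Arabidopsis, uptake genes are known to rise while ferritins fall. Here IRT1 and FER1 were both higher in each line than in WT, and both higher in G34R than in G34W.

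Regulators of the iron response did not move as one group. Of 18 tested, 9 were higher and 2 lower in G34R minus WT, and 5 higher and 7 lower in G34W minus WT, and median-ratio scaling gave 9 and 4, and 5 and 9. Over all 18544 genes that scaling gave 4665 higher and 4911 lower in G34R minus WT, and 4500 and 4509 in G34W minus WT. Without it, 50% of the regulators were higher and 11.1% lower in G34R minus WT, beside 34.6% and 16.5% of all genes. In G34W minus WT 27.8% were higher and 38.9% lower, beside 44.8% and 13.1%. FIT, the bHLH factor that activates IRT1, had 11.6 ± 1.4 TPM in G34R and 6.79 ± 0.16 TPM in G34W, against 4.19 ± 0.65 TPM in WT (limma, adjusted p = 2.3e-07 and 0.00063). BHLH115, of the bHLH group that acts upstream of it, rose by 0.39 ± 0.05 log2 units in G34R and 0.47 ± 0.05 in G34W (adjusted p = 3.95e-06 and 4.1e-07). Other regulators went the other way. BTS, a ubiquitin ligase that restrains the iron response, differed by -0.65 ± 0.08 in G34R minus WT and -0.73 ± 0.08 in G34W minus WT (adjusted p = 3.97e-06 and 8.91e-07). IMA3, which encodes a peptide that promotes uptake, differed by -0.81 ± 0.17 and -1.24 ± 0.17 (adjusted p = 0.000851 and 1.26e-05). BHLH101, IMA1 and IMA2 were lower in G34W minus WT, at -1.66, -1.02 and -1.38 (adjusted p = 2.45e-06, 0.00156 and 0.000281). In G34R minus WT, IMA1 rose by 0.82 ± 0.24 (adjusted p = 0.0081), while BHLH101 at -0.47 and IMA2 at 0.20 were not past the threshold (adjusted p = 0.057 and 0.536). BHLH38, BHLH39 and BHLH100 were higher in G34R minus WT, by 1.3, 0.54 and 1.31 (adjusted p = 3.28e-05, 0.0112 and 3.02e-05). In G34W minus WT, BHLH39 was lower at -0.43 (adjusted p = 0.0327). BHLH38 at -0.12 and BHLH100 at -0.26 were not past the threshold there (adjusted p = 0.626 and 0.255). The BHLH39 calls were kept in 11 and 9 of 14 alternatives. The 7 factors known to act on ferritin promoters or on their repression were split, with 2 higher and 2 lower in each line minus WT (28.6% each way). BHLH104, a partner of ILR3, rose to 46.3 ± 0.56 TPM in G34R and 41.6 ± 3.4 TPM in G34W, against 29.4 ± 3.1 TPM in WT (adjusted p = 2.16e-06 and 3.72e-05). TIC, a clock protein known to repress FER1, had 64.7 ± 9.3 TPM in G34R and 76.9 ± 4.0 TPM in G34W, against 87.4 ± 1.6 TPM in WT (adjusted p = 0.000123 and 0.0447), and the G34W call was kept in 7 of 14 alternatives. PHL1, which with PHR1 activates FER1 under phosphate shortage, had 8.08 ± 0.54 TPM in G34R and 6.40 ± 0.81 TPM in G34W, against 4.88 ± 0.89 TPM in WT (adjusted p = 0.00082 and 0.0415). PHR1 itself was lower in G34R minus WT, at -0.14 (adjusted p = 0.032). In G34W minus WT it was at -0.05 (adjusted p = 0.384). PYE was lower only in G34W minus WT, at -0.57 (adjusted p = 0.00183). ILR3 and BHLH121 were past the threshold in neither line. With median-ratio scaling the PHL1 call in G34W was lost (adjusted p = 0.368). PHR1 was then lower in both lines, at -0.27 in each (adjusted p = 0.000177 and 0.000161). The count in G34W minus WT became 1 higher and 5 lower, beside 4500 and 4509 of all 18544 genes.

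Of 10 genes for chelators and long-distance transport, 5 were higher and 2 lower in G34R minus WT, and 7 and 1 in G34W minus WT (6 and 2 under median-ratio scaling). Without that scaling the shares were 50% and 20% in G34R minus WT, beside 34.6% and 16.5% of all genes. In G34W minus WT they were 70% and 10%, beside 44.8% and 13.1%. With it, 4500 of all 18544 genes were higher and 4509 lower in G34W minus WT. NAS2 and NAS1 make nicotianamine, the chelator that carries iron in the phloem. NAS2 rose to 27.1 ± 2.1 TPM in G34R and 11 ± 1.8 TPM in G34W, against 1.79 ± 0.48 TPM in WT (limma, adjusted p = 5.95e-12 and 1.89e-09). NAS1 rose to 126 ± 4.5 TPM in G34R and 91.0 ± 3.8 TPM in G34W, against 66.8 ± 1.3 TPM in WT (adjusted p = 9.25e-11 and 6.01e-07). OPT3, a phloem transporter of iron signals from the shoot, fell to 57.0 ± 1.4 TPM in G34R and 72.4 ± 2.0 TPM in G34W, against 105 ± 6.7 TPM in WT (adjusted p = 6.03e-10 and 2.41e-07).

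Of 11 other carriers of the vacuole and endoplasmic reticulum body, 7 were tested and 3 were higher and 0 lower in each line minus WT. That is 42.9% higher, near the 34.6% of all genes in G34R minus WT and the 44.8% in G34W minus WT. MTP3, which moves zinc into root vacuoles, rose to 23.8 ± 1.5 TPM in G34R and 14.3 ± 0.67 TPM in G34W, against 6.58 ± 0.44 TPM in WT (limma, adjusted p = 1.05e-10 and 7.02e-08). MTP1, its relative, and MEB2, a VIT-like protein of the endoplasmic reticulum body, had smaller differences of 0.43 ± 0.06 and 0.41 ± 0.13 in G34R minus WT (adjusted p = 3.1e-05 and 0.0138). The MEB2 call was lost under median-ratio scaling and quantile normalization (adjusted p = 0.0604 and 0.0993). Under median-ratio scaling 2 were higher in G34R, and 1 higher and 1 lower in G34W. Of all 18544 genes, 4665 were then higher in G34R, and 4500 were higher and 4509 lower in G34W. VTL4 was listed at 0 in all 9 libraries.

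Of 10 genes for reduction and import of iron in plastids and mitochondria, 3 were higher and 5 lower in G34R minus WT, and 4 higher and 3 lower in G34W minus WT, but 0 higher and 5 lower in each under median-ratio scaling. Without that scaling the shares were 30% higher and 50% lower in G34R minus WT, beside 34.6% and 16.5% of all genes. In G34W minus WT they were 40% and 30%, beside 44.8% and 13.1%. With it, 4665 of all 18544 genes were higher and 4911 lower in G34R minus WT, and 4500 and 4509 in G34W minus WT. FRO7 and FRO6, ferric reductases of the chloroplast and of the leaf cell surface, fell by 0.57 and 0.54 log2 units in G34R minus WT (limma, adjusted p = 5.34e-07 and 2.11e-06). YSL6, a plastid transporter, fell by 0.23 (adjusted p = 0.00302). Of 12 iron-sulfur cluster genes 11 were tested, of which 3 were higher and 1 lower in G34R minus WT and 2 and 2 in G34W minus WT. The shares higher, 27.3% and 18.2%, were below the 34.6% and 44.8% of all genes. The shares lower, 9.09% and 18.2%, stand beside 16.5% and 13.1%. With median-ratio scaling the counts became 1 higher and 6 lower, and 0 higher and 7 lower, beside the all-gene counts under that scaling given above. HCF101 and NFU1 hand on finished clusters in plastids, and SUFD belongs to the scaffold that builds them. HCF101 differed by -0.32 ± 0.05, NFU1 by 0.45 ± 0.08 and SUFD by 0.15 ± 0.05 in G34R minus WT (adjusted p = 5.2e-05, 0.000261 and 0.0209), and the call for SUFD was lost under median-ratio scaling (adjusted p = 0.788). Of 10 antioxidant enzymes 4 were higher and 3 lower in G34R minus WT, and 6 and 2 in G34W minus WT, which median-ratio scaling changed to 3 and 6, and 5 and 4. Without that scaling the shares higher, 40% and 60%, stand beside 34.6% and 44.8% of all genes. The shares lower, 30% and 20%, stand beside 16.5% and 13.1%. APX1, a cytosolic ascorbate peroxidase, rose to 436 ± 22 TPM in G34R and 449 ± 5.8 TPM in G34W, against 226 ± 11 TPM in WT (adjusted p = 1.02e-11 and 7.12e-12). FSD1, an iron superoxide dismutase, differed by 0.31 ± 0.03 in G34R minus WT and 0.41 ± 0.03 in G34W minus WT. CSD2, a copper-zinc superoxide dismutase, had -0.81 ± 0.04 in G34R minus WT and -0.12 ± 0.04 in G34W minus WT (adjusted p = 1.66e-10 and 0.0274).

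**Figure D4:**
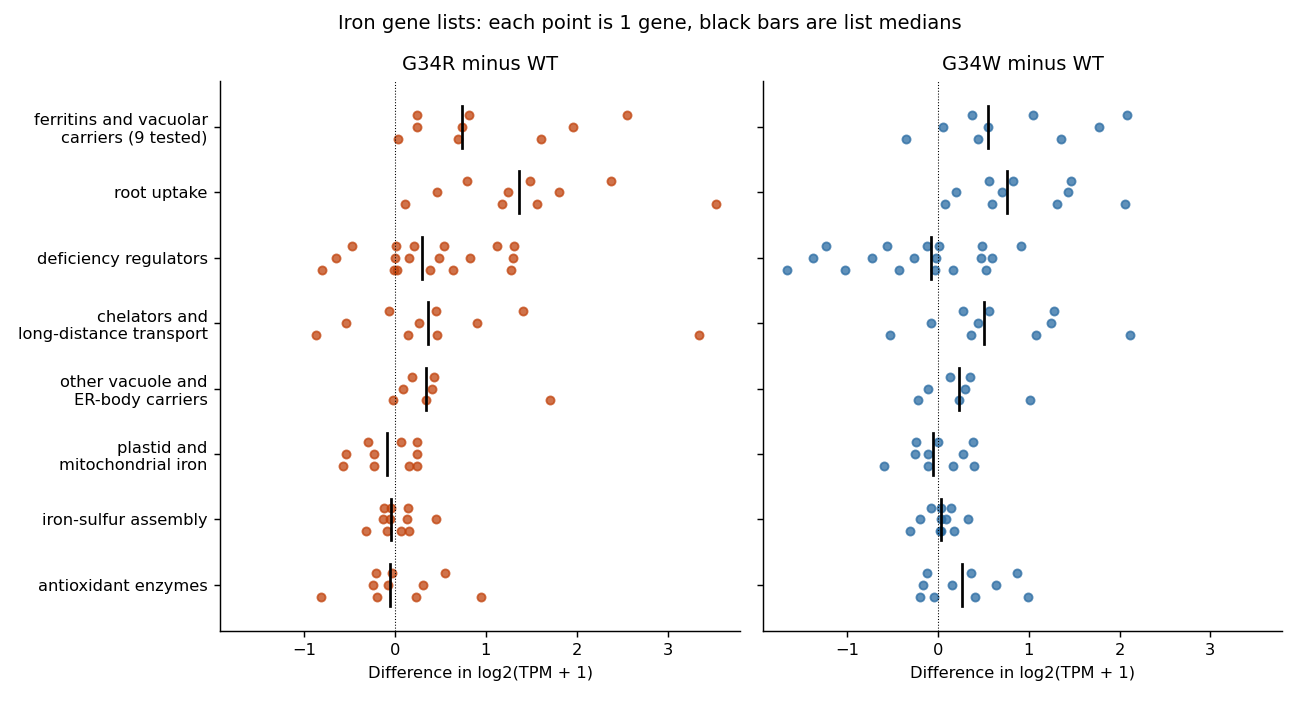
Differences in log2(TPM + 1) of G34R minus WT (left) and G34W minus WT (right) for genes of 8 iron-related lists, ferritins and vacuolar carriers in the top row. Points are genes and black bars are list medians, which stand at 0.74 for the top row and 1.36 for root uptake in G34R minus WT, and at 0.55 and 0.76 in G34W minus WT.

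By pattern, the 5 genes most like FER1 over the 9 libraries were MLP328, ATC, SDR4, ST4B and IRT3. They were taken from 6734 genes with a symbol and a mean of at least 5 TPM, by the root mean square difference of log2(TPM + 1) after centring each gene, which was 0.08, 0.14, 0.19, 0.21 and 0.23. MLP328, a major latex protein-like gene, had 1030 ± 45 TPM in G34R and 778 ± 10 TPM in G34W, against 198 ± 5.0 TPM in WT. ATC, a relative of the floral repressor TFL1, had 12.9 ± 0.72 TPM in G34R and 9.70 ± 0.93 TPM in G34W, against 1.81 ± 0.34 TPM in WT. SDR4 had 56.3 ± 1.6, 38.2 ± 2.1 and 11.2 ± 1.1 TPM in G34R, G34W and WT. ST4B had 24.0 ± 3.2, 19.9 ± 0.91 and 4.72 ± 0.51 TPM in the same groups. IRT3, a zinc and iron transporter of the ZIP family, had 25.2 ± 0.81 TPM in G34R and 25.0 ± 1.5 TPM in G34W, against 4.81 ± 0.74 TPM in WT, so the lines did not stand apart in it as they did in FER1. These likenesses are descriptions of 3 groups of libraries that share their depth and scaling.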

How the data were processed

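The authors deposited 1 table of TPM values for 9 libraries, with each column summing to 1000000. The tools listed, per the submitters' processing notes, were DESeq2 1.26.0, HISAT2 2.1.10 and fastp 0.20.1, with TAIR10 as genome. How reads were counted, and whether by strand, is not given in the sources used here. Groups and replicate numbers came from the sample titles. Reads were recovered by multiplying TPM by the gene span of the TAIR10.1 annotation with introns, which gave whole numbers (relative tolerance 1e-06) for 99.98% of genes with a span and 99.81% to 99.86% of TPM. Of the loci, 27445 (99.24%) were in that annotation. TPM thus understate genes with long introns, and levels between genes were compared per spliced kilobase. At this depth 3 reads per kilobase are 0.422 to 0.495 TPM, a floor that covers counting error only.

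The 18544 genes whose mean reached 1 TPM were tested on log2(TPM + 1) by limma 3.58.1 (R 4.3.3), in 1 model over 3 groups without a block, with moderated variances and a trend, two-sided, adjusted by Benjamini-Hochberg at 0.05. The table held no raw counts, so no count test was used. The procedure was tested on simulated data. Alternatives were a pseudocount of 0.1, no filter, median-ratio scaling, quantile normalization, a replicate block and leaving out each library, 14 in all. Chi-square per degree of freedom between replicates was 1.75 to 5.47, above sampling noise, so none was counted as a repeat of another. It was 2.55, 5.47 and 2.85 for the G34R pairs, against 1.75 to 1.96 in G34W and 1.78 to 2.02 in WT. The G34R libraries thus differed most among themselves, replicates 1 and 3 above all. The model used 1 estimate of spread per gene for all 3 groups.

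The members and the gene lists were chosen with earlier results of these data known. The text names the 10 members, HTR4, HTR5 and HTR8, the 3 genes of each list with the smallest adjusted p in G34R minus WT, and the 5 genes most like FER1. CRU2, SESA1, SUFE1 and VTL4, listed at 0, were named after their values were seen. So were BTS, IMA1, IMA2, IMA3, BHLH38, BHLH39, BHLH100, BHLH101, BHLH121, ILR3, PYE, PHR1, SCR, SHR and the neighbours of members. The promoter search was widened to 500 bases before the start codon after the 250-base window had been seen to lack the element of FER1. Coding sequences were aligned globally with Biopython 1.88.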

Additional observations from a re-analysis of the deposited data

Results flagged for a closer look

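For 5 genes the difference from WT was not the same in the 2 lines, by limma's test of G34W minus G34R itself with Benjamini-Hochberg adjustment over 18544 genes. The log2 difference was -0.48 for FER1, -0.60 for FER2, -0.25 for VTL5 and -0.30 for NRAMP3, all lower in G34W than in G34R, and 0.23 for FER4, which was higher in G34W. Over all genes tested, 21.5% were higher and 11.8% lower in this comparison. In each of the 5 genes the 3 G34W libraries lay entirely to one side of the 3 G34R libraries. The share of all genes without such overlap was not counted, so nothing is read from this. FER1 (highest adjusted p over 14 alternatives 9.95e-07) and VTL5 (0.00799) kept the call throughout, whereas FER2, FER4 and NRAMP3 did not.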

How the results depend on the processing

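Of 378 alternative values for the members, 10 changed sign. NRAMP4 accounts for 9 of the 10 sign changes. Its differences under median-ratio scaling were -0.0927 for G34R minus WT, -0.16 for G34W minus WT and -0.0706 for G34W minus G34R, and under quantile normalization -0.0696, -0.12 and -0.0508. With 1 library left out, NRAMP4 spanned -0.0229 (without G34R replicate 3) to 0.0827 for G34R minus WT, and -0.0307 (without G34R replicate 2) to 0.0749 for G34W minus G34R, with -0.00398 without G34W replicate 3. VTL2 spanned -0.25 to 0.0153 (without G34W replicate 2) for G34W minus G34R. The cause was not tested.

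The count of members lower in G34W minus WT was 2 under median-ratio scaling (FER2 and NRAMP4) and 1 under quantile normalization (FER2), in place of 0, and 0 to 1 when 1 library was left out (1, FER2, without WT replicate 1). The count higher in G34W minus G34R was 0 under both scalings in place of 1, and 0 to 2 with 1 library left out, and the count lower was 2 to 4 in place of 4. The count higher against WT was 6 in G34R under both scalings, and 5 and 6 in G34W under median-ratio scaling and quantile normalization, in place of 7, and nothing is read from these counts. FER3 was past the threshold as higher in G34W minus G34R without G34W replicate 3 (adjusted p = 0.0286). Both scalings brought the median of all genes near 0 (-0.01, 0.01 and -0.01 under median-ratio scaling for G34R minus WT, G34W minus WT and G34W minus G34R).

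Replicate numbers shared by groups did not pair the libraries (correlations of deviations -0.023 to 0.041 for the same number). A replicate block left the member counts at 7, 7, 1 and 4 and gave 6447 higher and 3122 lower genes in G34R minus WT. Of 1008 alternative counts for the other lists, 904 were within 1.5 times the first count and 104 were not. Depth limits VIT1, with 2 reads in all, and FER2, with 14 to 40 reads per library.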
